A study of Mus musculus with 2 samples.

Results

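The adhesion, caveolar and secretory genes of endothelium described here are 10 named genes, taken with every probe set that the array's annotation assigns to them alone. They are the adhesion receptors Pecam1, Icam1, Icam2 and Vcam1, the caveolar genes Plvap, Cav1 and Cav2, and the secreted proteins Vwf, Egfl7 and Egfl8. These 10 of the 18193 genes on the array were measured by 16 of its 45037 probe sets. The study profiled sorted cells from mouse embryoid bodies, the cell aggregates in which embryonic stem (ES) cells differentiate, on Affymetrix expression arrays. The dox sample came from A2lox.Mesp1 ES cells of 129/Ola background that were given 250 ng/mL doxycycline (dox) from day 2 to day 4, which switches on a Mesp1 transgene. The no dox sample came from the same transgenic line, left untreated. Both cultures were sorted on day 5 for cells positive for both Flk1 and Tie2, so both groups carry the transgene and both passed the same gate. Dox was not given to cells without the transgene, so the drug and Mesp1 cannot be told apart. There was 1 array per condition. Every difference below therefore compares 2 samples, with no replicate error and no p-value, and the only spread that can be had within the arrays is that between probe sets that read 1 gene.

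Endothelial cells line vessels and hold their junctions, catch circulating leukocytes, move solutes across the wall and release clotting factors on demand. Pecam1 (CD31) binds its own kind at cell junctions, while Icam1, Icam2 and Vcam1 are immunoglobulin-family ligands for leukocyte integrins. Icam1 and Vcam1 are induced by inflammatory signals through NF-kB, and Icam2 is present on resting endothelium. Cav1 and Cav2 form the coat of caveolae, flask-shaped pits of the plasma membrane, and Plvap builds the diaphragms that close caveolae and fenestrae. Von Willebrand factor (Vwf) is stored in Weibel-Palade bodies and tethers platelets after release. Egfl7 is a secreted endothelial protein of the vessel matrix, and Egfl8 is its closest relative.

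RefSeq promoter windows (build GRCm38.p6, 250 bases before to 50 after each start site) were found for 5 of the 10 genes, Plvap and Vwf not among them. The windows of Icam1, Cav2 and Cav1 are shown because Icam1 was more than 2-fold higher with dox and because Cav2 and Cav1, which are next to each other on chromosome 6, were both higher. A window of Egfl7, which was slightly lower, stands beside them for comparison. Capitals mark the ETS core GGAA or its reverse complement TTCC, the motif of the factor family best known for endothelial genes. All 4 windows are on the plus strand and are written 5′ to 3′.
Icam1 (chr9:21015690-21015989): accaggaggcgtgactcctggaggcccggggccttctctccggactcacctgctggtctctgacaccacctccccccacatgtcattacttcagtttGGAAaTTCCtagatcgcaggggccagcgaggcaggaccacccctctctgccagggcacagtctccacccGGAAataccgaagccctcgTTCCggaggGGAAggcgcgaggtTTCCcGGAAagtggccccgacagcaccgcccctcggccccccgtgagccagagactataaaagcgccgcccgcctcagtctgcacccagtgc
Cav2 (chr6:17280935-17281234): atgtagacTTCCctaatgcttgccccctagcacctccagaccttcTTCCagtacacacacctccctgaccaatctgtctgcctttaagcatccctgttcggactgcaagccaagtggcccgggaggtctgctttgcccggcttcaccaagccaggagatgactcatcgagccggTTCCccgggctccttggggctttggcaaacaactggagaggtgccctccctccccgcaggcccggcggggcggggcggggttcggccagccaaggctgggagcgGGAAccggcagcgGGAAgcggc
Cav1 (chr6:17306085-17306384): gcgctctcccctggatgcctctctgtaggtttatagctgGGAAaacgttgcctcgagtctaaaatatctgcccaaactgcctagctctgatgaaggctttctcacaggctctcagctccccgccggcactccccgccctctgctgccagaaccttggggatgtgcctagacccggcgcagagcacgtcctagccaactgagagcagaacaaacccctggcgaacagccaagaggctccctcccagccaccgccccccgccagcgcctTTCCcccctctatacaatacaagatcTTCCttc
Egfl7 (chr2:26580833-26581132): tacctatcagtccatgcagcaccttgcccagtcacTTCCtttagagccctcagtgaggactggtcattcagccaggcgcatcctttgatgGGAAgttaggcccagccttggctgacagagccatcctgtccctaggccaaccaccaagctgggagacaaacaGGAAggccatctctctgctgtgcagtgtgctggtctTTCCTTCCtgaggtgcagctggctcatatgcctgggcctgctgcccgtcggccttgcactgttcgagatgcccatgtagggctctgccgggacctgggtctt

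The Icam1 window held 7 ETS cores, those of Cav2 and Egfl7 held 5 each and that of Cav1 held 3, where the median over all 32851 RefSeq windows was 3. At least 1 core was present in 96% of all windows, so its presence is common. Motifs were searched on both strands. The NF-kB-like sequence GGAAANNCC, which contains an ETS core, occurred 2 times in the Icam1 window, at positions -153 and -84 from the start site, and 1 time in the Egfl7 window, on the reverse strand at -57. It was in neither caveolin window shown. Over all windows, 5.82% held it. E-boxes (CANNTG), the class of site that basic helix-loop-helix factors such as Mesp1 bind, numbered 2 each for Icam1, Cav2 and Egfl7 and 1 for Cav1, and 72.3% of all windows held at least 1. The Icam1 window also held TATAAA at position 14 after the start site, and the Cav1 window held it on the reverse strand at -221, a sequence found in 13.6% of windows. The windows of Icam1, Cav2 and Cav1 held 2 GC boxes (GGGCGG) each and that of Egfl7 none, and 35.7% of windows held at least 1. A match is a description of letters in these windows, and no binding was measured. Cav1 and Egfl7 have further RefSeq start sites, whose windows are not shown, and their probe sets were not matched to a start. A further Egfl7 window (chr2:26586386-26586685) held 4 GC boxes and the further Cav1 window none, so the difference in GC boxes depends on the start chosen. The further Egfl7 windows held 4 and 1 ETS cores, 0 and 1 E-boxes and no NF-kB-like sequence. For Egfl7 the counts of these motifs thus depend on the start as well. The further Cav1 window held 3 ETS cores, 1 E-box and no NF-kB-like sequence, like the one shown.

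Plvap, Vwf and Icam1 were the members that differed 2-fold or more, and all 3 were higher with dox. The other 7 lay within 2-fold, and no member was 2-fold lower. The same 3 genes passed 2-fold under all 9 alternative settings that had been planned. Each of them has 1 probe set, so only the settings that rescaled the signals or changed the added constant could alter their differences. Among the 11794 genes whose signal reached the array's median on at least 1 array, called the signal filter, 7.75% differed by 2-fold or more, 5.69% upward with dox and 2.06% downward. All 10 members passed that filter, and their median log2 difference was 0.52, against 0.05 over all genes past it. The 10 members were chosen with earlier results of these arrays known, so their count is a description of these genes. Folds and log2 differences are dox over no dox on the log2(signal + 16) scale, which understates changes of dim genes.

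**Figure D1:**
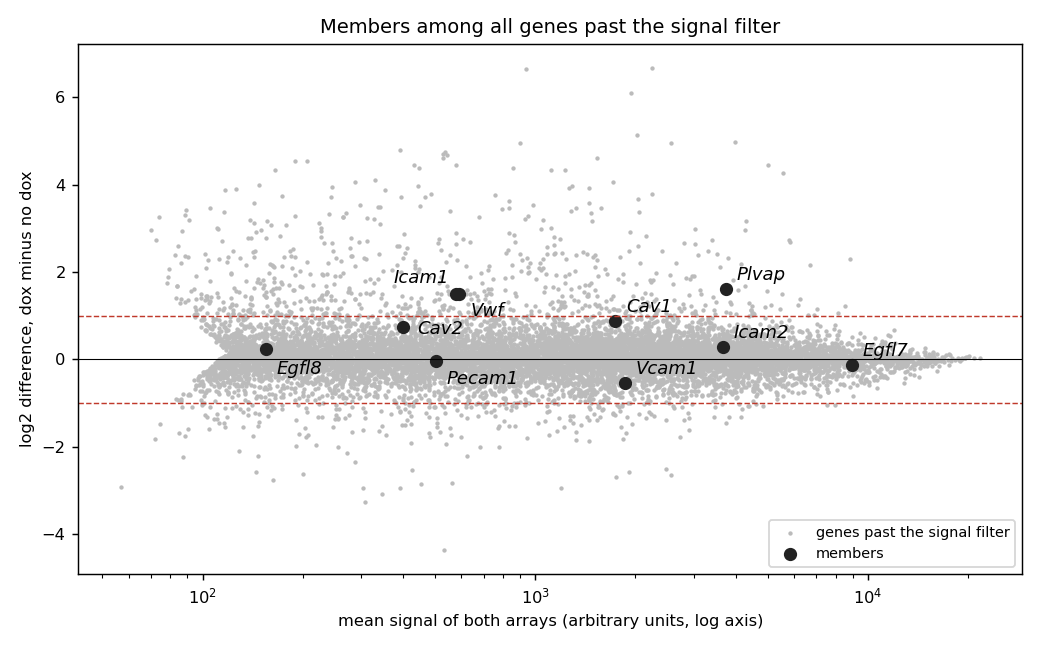
Log2 difference (dox minus no dox) against the mean signal of both arrays (arbitrary units, log axis) for all 11794 genes past the signal filter in grey and the 10 members, each by its brightest probe set, in black. Dashed lines mark 2-fold, and Plvap, Vwf and Icam1 are the members above the upper line.

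The arrays themselves were alike in their range. The median signal was 127 with dox and 112 without dox, and the lowest value was exactly 1 on both, a floor. Mesp1 had a signal of 10977 with dox and 2433 without dox, and whether its probe set reads the transgene was not tested. The sort genes differed little, with Kdr (which encodes Flk1) at 10733 with dox and 10140 without dox and Tek (Tie2) at 9277 and 8799 in the same order. The 2-fold higher share of all genes past the filter was 5.69%. All 12 endothelium markers that were looked up passed the filter, with a median log2 difference of -0.06, and 3 of them reached 2-fold, all higher. They were Clec14a (2445 with dox and 142 without dox, log2 difference 3.96), Robo4 (667 and 241, 1.41) and Eng (3922 and 1626, 1.26). The other 9 lay within 2-fold, and of all 12 markers 5 were higher and 7 lower by any amount. The 12 markers summed to 54007 with dox and 52249 without dox. This sum includes the bright sort genes Kdr and Tek, whose presence in both samples follows from the gate. Cdh5, a marker that was not sorted on, had 7948 with dox and 8244 without dox. Across all genes the 2-fold calls were 671 higher and 243 lower, so 73.4% were higher. When both arrays were scaled to the same median they were 529 higher and 402 lower (56.8%), and the median of all genes moved to -0.13.

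Markers of smooth muscle and mesenchyme, cardiomyocytes, and mesothelium and epicardium had higher summed signals in the dox sample, and those of blood a lower one. Of 12 smooth muscle and mesenchyme markers, 11 passed the filter and 9 were 2-fold or more higher, and the summed signal of the list was 41079 with dox and 5423 without dox. Of 10 cardiomyocyte markers 6 were 2-fold or more higher (summed signal 7594 with dox and 1974 without dox), and of 6 mesothelium and epicardium markers 3 were (2289 and 236 in the same order). Of the genes of these lists past the filter, 4, 3 and 3 in that order passed through the dox array alone, so their direction was fixed by the filter and only the summed signals, taken over each whole list, are free of it. Examples are Tagln (3960 with dox, 96.7 without dox), Myl4 (674 and 31.0) and Wt1 (1118 and 35.9), each below the array's median without dox, so the sizes of their differences have no order. Among the defining genes, Myh11 and Nppa were dim on both arrays, at 13.5 and 8.16 with dox, and Aldh1a2 was at the floor of 1 on both. Of 10 blood cell markers 4 were 2-fold or more lower with dox and none higher, with summed signals of 8058 with dox and 14676 without dox. The 6 epithelium and pluripotent cell markers summed to 9575 with dox and 2294 without dox, mostly through Krt8 and Krt18. These 2 were 2-fold or more higher, and the other 4 lay below the filter. Of those, Cdh1, Epcam and Pou5f1 were lower with dox and Nanog higher. Beside these counts, 5.69% of all genes past the filter were 2-fold or more higher and 2.06% lower. Cav1, Cav2, Icam1 and Vcam1 are also made by cells other than endothelium, and in a sorted bulk sample the number of cells of a type and the RNA per cell cannot be told apart. The part of these cells in the differences of the members was not tested.

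The adhesion receptors differed by unequal amounts between these samples. Icam1, the ligand of the leukocyte integrin LFA-1, had a signal of 876 with dox and 301 without dox by its single probe set (1424067_at). That is a 2.81-fold higher signal, a log2 difference of 1.49, and 3.18% of all genes past the filter had a difference as high or higher. Icam2, a ligand of the same integrin, had 4033 with dox and 3289 without dox, 1.23-fold higher (log2 difference 0.29). The difference of Icam1 exceeded that of Icam2 by 1.20 log2 units. The SD between probe sets that read 1 gene, pooled over 5173 genes, was 0.38, which holds no variation between cultures or arrays. Pecam1 was nearly level, with 497 with dox and 510 without dox (log2 difference -0.03, or 0.03 relative to the median of the endothelium markers given above).

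Vcam1, the ligand of the integrin VLA-4, was lower by its brightest probe set but not 2-fold. That probe set (1451314_a_at) gave 1517 with dox and 2209 without dox, a log2 difference of -0.54, and 8.21% of genes had a difference as low or lower. Its remaining probe sets lay below the signal filter on both arrays. One (1415989_at) gave 45.8 with dox and 64.4 without dox, and the other (1448162_at) gave 23.8 with dox and the floor value of 1 without dox. The dimmest probe set had the opposite direction to the others, and the mean over all 3 was 0.10, so the direction for Vcam1 rests on the brightest one. Icam1 and Vcam1, which share induction by NF-kB as background, differed in opposite directions by their brightest probe sets.

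**Figure D2:**
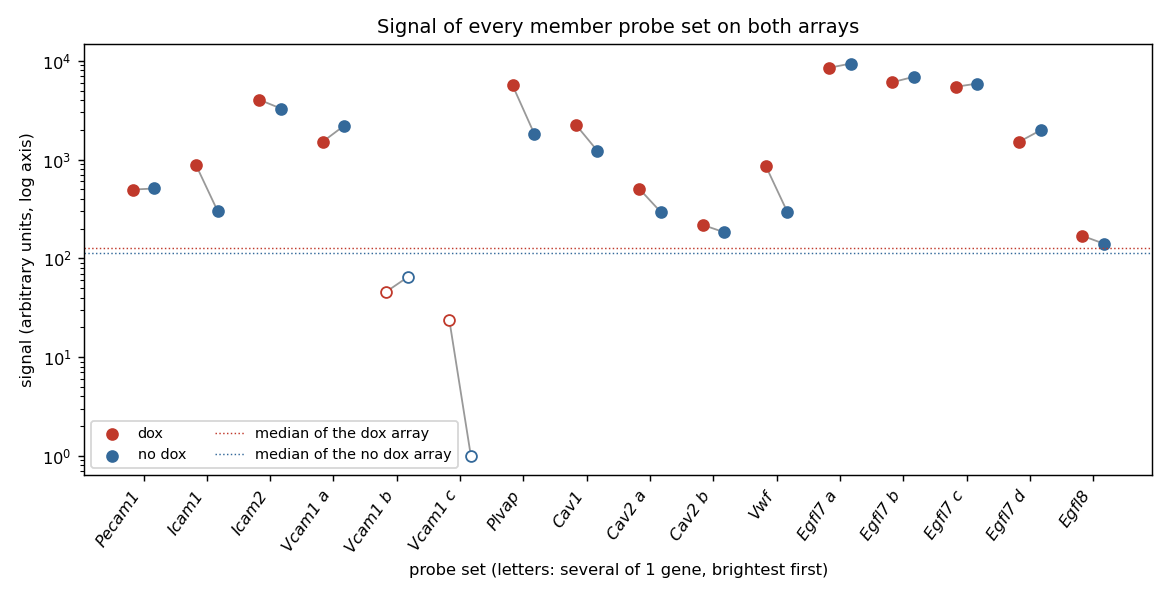
Signal (arbitrary units, log axis) of each of the 16 member probe sets on the dox array (red, left of each pair) and the no dox array (blue, right), with letters for several probe sets of a gene and dotted lines at the array medians of 127 and 112. Open symbols are the 2 Vcam1 probe sets below the signal filter; the pairs of Icam1, Plvap and Vwf are the steepest among the filled ones.

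The caveolar genes were all higher with dox. Plvap had a signal of 5632 with dox and 1836 without dox by its only probe set (1418090_at), and 2.76% of all genes past the filter had a log2 difference as high as its 1.61 or higher. Cav1, the caveolin required for caveolae to form, had 2250 with dox and 1225 without dox, 1.83-fold higher (log2 difference 0.87). Cav2, which assembles with Cav1, had 506 with dox and 294 without dox by its brightest probe set, 1.68-fold higher (log2 difference 0.75). Its other probe set (1425955_at) gave 219 with dox and 184 without dox, a log2 difference of 0.23, so the probe sets of Cav2 agreed in direction and differed by 0.52 in size. Neither caveolin reached 2-fold under any setting that was run. The settings ranged from 0.69 to 0.93 for Cav1 and from 0.49 to 0.81 for Cav2.

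Of the secreted proteins Vwf differed most. It had a signal of 859 with dox and 295 without dox by its single probe set (1435386_at), 2.82-fold higher, and its log2 difference of 1.49 was matched or exceeded by 3.15% of genes. Egfl7 was close to level and slightly lower by all 4 of its probe sets. The brightest (1451428_x_at) gave 8509 with dox and 9381 without dox, a log2 difference of -0.14. The others gave log2 differences of -0.11, -0.18 and -0.39, and the last of these belonged to the dimmest (1421335_a_at), with 1514 with dox and 1982 without dox. The range over the 4 was 0.28, smaller than the median range of 0.33 between probe sets of a gene. Egfl8 had 169 with dox and 141 without dox, a log2 difference of 0.24, at signals just above the array medians.

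Egfl7 also carries a microRNA of endothelium inside its gene, miR-126, which was not measured on these arrays. Its mature sequence in RefSeq is shown so that the host can be recognised, with the seed (bases 2 to 8) in capitals.
mmu-miR-126a-3p: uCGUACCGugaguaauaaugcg

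By probe sets rather than genes, 14 of the 16 passed the signal filter. Of these, 3 reached 2-fold, all higher with dox. Over all 20451 named probe sets past it 5.59% were 2-fold or more higher, 2.12% lower and 7.72% either. Each of the 3 is the only probe set of its gene, so no other probe set bears on Plvap, Vwf or Icam1. Of all 10 members 7 had a single probe set. By any amount 8 of the 14 probe sets were higher and 6 lower, near the 54.6% that were higher over all named probe sets past the filter, and 4 of the 6 lower ones belong to Egfl7.

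**Figure D3:**
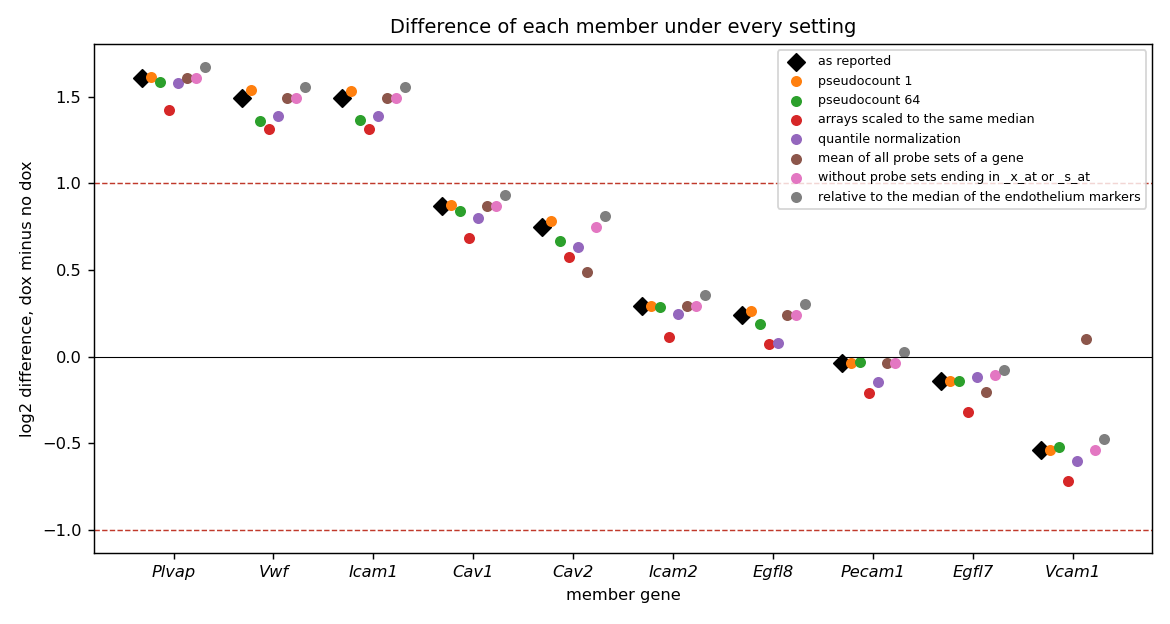
Log2 difference (dox minus no dox) of each member as reported (black diamond) and under 7 other ways of scaling, damping or combining the signals (coloured points), with dashed lines at 2-fold. Plvap, Vwf and Icam1 stay above the upper line throughout, Cav1 and Cav2 stay between 0 and that line, and Vcam1 is above 0 only for the mean of its 3 probe sets.

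Genes that work with the members were described by lists, which were drawn up with earlier results of these arrays known. Among caveolar coat proteins and partners, 9 of 11 measured genes passed the filter, with a median log2 difference of 0.11 (-0.07 with both arrays scaled to the same median). Of the 9, 1 was 2-fold or more higher and none lower, against 5.69% and 2.06% of all genes past the filter. That gene was Cavin2 (Sdpr), a coat protein that shapes caveolae, with 562 with dox and 33.5 without dox. Its log2 difference was 3.55, or 1.99 by the lowest of its 3 probe sets past the filter. The brightest lay below the array's median without dox and passed through the dox array alone, so its direction was fixed by the filter. Cavin1 (Ptrf), which caveolae need to form, was within 2-fold and lower, at 1002 with dox and 1293 without dox (log2 difference -0.36). Cavin3 (log2 difference 0.71) and Ehd2, an ATPase at the caveolar neck (0.65), were closer to the caveolins. The probe sets of Ehd2 ranged from 0.18 to 2.32.

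Genes of Weibel-Palade bodies and haemostasis included several that were higher with dox. Of 17 that passed the filter, out of 21 measured, 5 reached 2-fold, all higher with dox, and 14 were higher by any amount. Over all genes past the filter, 5.69% were 2-fold higher and 55.6% higher by any amount. Their median log2 difference was 0.56, and 0.38 with both arrays scaled to the same median, where the members had 0.34 and all genes -0.13. Procr, the endothelial protein C receptor, had 1468 with dox and 347 without dox (log2 difference 2.03). Edn1, the endothelin precursor, which is stored in these granules, had 2279 with dox and 668 without dox (1.75). Angpt2, a Tie2 ligand also stored in them, had 367 with dox and 154 without dox (1.18). Plat, the tissue plasminogen activator, had 1724 with dox and 391 without dox (2.10), but another of its probe sets gave -0.24. Selp, the P-selectin of the same granules, was below the filter on both arrays (70.1 with dox and 67.9 without dox).

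Other adhesion genes of junctions and the surface differed in both directions. Of 16 junction and adhesion genes 2 were 2-fold or more higher and 2 lower, with a median of 0.12 (-0.06 with both arrays scaled to the same median). The shares over all genes past the filter were 5.69% higher and 2.06% lower. Alcam, an adhesion molecule of the same superfamily as Vcam1, had 330 with dox and 1.12 without dox, next to the floor, with log2 differences between 1.22 and 4.34 over 4 probe sets. Its brightest probe set passed the filter through the dox array alone, so that direction was fixed by the filter. Ceacam1, a further member of that superfamily, had 829 with dox and 214 without dox (1.88), with 4 probe sets between 0.49 and 2.01. The lower ones were Cldn5, the endothelial claudin (1350 with dox and 3582 without dox, -1.40), and Cd47 (895 and 2243 in the same order, -1.31), whose 4 probe sets ran from -1.31 to -0.47, so that not all of them reached 2-fold. Of 6 selectins and leukocyte ligands past the filter, Cd34 alone was 2-fold lower (383 with dox, 962 without dox) and none was higher, with a median of -0.05. Sele, the E-selectin that is induced with Icam1 and Vcam1, had 191 with dox and 144 without dox (log2 difference 0.37), and the nearest relatives of Icam1, Icam4 and Icam5, were dim on both arrays.

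The integrins to which the members bind were measured in the same cells. The leukocyte chains Itgal, Itgam and Itgb2, which bind Icam1 and Icam2, were below the filter on both arrays (37.8, 91.9 and 42.5 with dox, against 29.0, 73.1 and 79.5 without dox). Itga4 and Itga9, chains that bind Vcam1, were higher. Itga4 had 2225 with dox and 676 without dox (log2 difference 1.69), and Itga9 had 1873 with dox and 301 without dox (2.58). Itgav and Itgb1 were within 2-fold (0.82 and 0.37). Of 10 listed integrins 4 thus passed the filter, 2 reached 2-fold, both higher with dox, and the median was 1.26 over 4 genes. The 2-fold higher share over all genes past the filter was 5.69%. The list summed to 11992 with dox and 6049 without dox.

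Of genes of inflammatory activation, the setting in which Icam1 and Vcam1 are induced, none past the filter reached 2-fold by its brightest probe set. The share over all genes past the filter was 7.75%. Of 15 measured genes 11 passed the filter, and 8 were higher and 3 lower by any amount, with a median log2 difference of 0.21, against 55.6% higher over all genes. That median was 0.04 with both arrays scaled to the same median and -0.05 with the filter at the 75th percentile. Nfkbia, the NF-kB inhibitor that NF-kB itself induces, had 8992 with dox and 5086 without dox (0.82 by its brightest probe set, and up to 1.34 by others). Tnfaip3, an NF-kB feedback gene, had 287 with dox and 156 without dox (0.82). Tnfrsf1a, the TNF receptor, had 2281 with dox and 4060 without dox (-0.83), and the chemokine Cxcl1 had 178 with dox and 260 without dox (-0.50). Tnf itself was below the filter on both arrays (7.49 with dox and 40.1 without dox, log2 difference -1.25). Il1r1 was also below it on both, in the opposite direction (118 with dox and 48.1 without dox, 1.06).

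Of 9 measured genes with EGF-like domains related to Egfl7 and Egfl8, 5 passed the filter, with a median log2 difference of -0.19. Over all genes past the filter, 5.69% were 2-fold or more higher and the median was 0.05. Of the 5, 2 reached 2-fold, both higher with dox. They were Megf10, a phagocytic receptor (493 with dox and 37.4 without dox, log2 difference 3.25), and Dlk1, a non-canonical Notch ligand (2451 and 638 in the same order, 1.92). Megf6 (-0.51) and Megf11 (-0.19) were within 2-fold, and Egfl6 was below the filter on both arrays. Megf10 lay below the array's median without dox and passed the filter through the dox array alone. Its direction was thus fixed by the filter, and the size of its difference depends on the pseudocount. Dlk1 and Megf10 are also known from mesenchyme and muscle precursors. Smooth muscle and mesenchyme markers were higher in the same sample, as given above, and markers of muscle precursors were not looked up. A link was not tested.

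**Figure D4:**
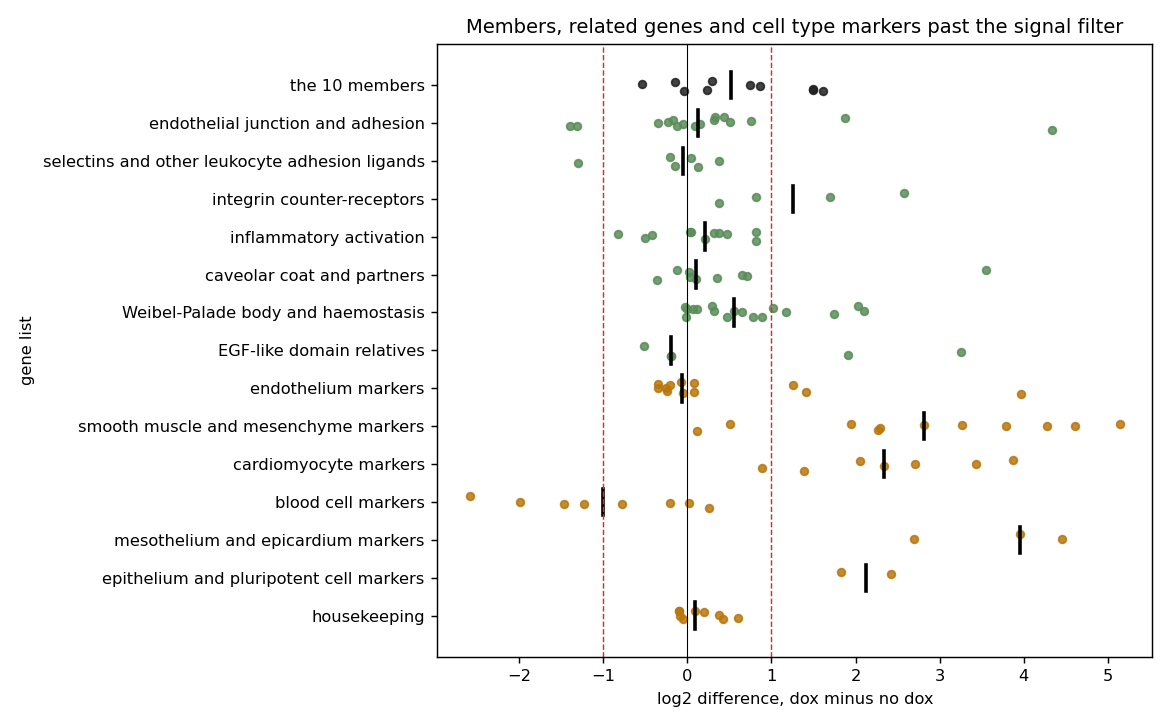
Log2 differences (dox minus no dox) of the 10 members (black), of genes in 7 related lists (green) and of marker and housekeeping lists (brown), for genes past the signal filter, with a black bar at each median and dashed lines at 2-fold. The median of the members is 0.52, that of Weibel-Palade body and haemostasis genes 0.56, that of endothelium markers -0.06 and that of smooth muscle and mesenchyme markers 2.81. The last is over 11 genes, of which 4 passed the filter through the dox array alone, so their direction was fixed by the filter.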

How the data were processed

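Per the labels' protocols, RNA of sorted cells was column-purified and 100 ng was labelled with biotin for the array. Linear signal intensity values were deposited, 1 for each probe set on each array. The sources used here do not give how the authors summarised, background-corrected and scaled them. The table used here holds no detection calls or control probe sets, and the number of arrays limits the precision.

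Probe sets were named through the platform annotation (34945 with 1 symbol, 932 with several and 9160 with none). All 10 members matched RefSeq by Entrez number. Differences are log2(signal + 16), dox minus no dox. A gene's value is that of the probe set with the highest mean signal. The signal filter keeps genes that reach the median on at least 1 array, and a fixed 2-fold described genes. The procedure was tested on simulated data.

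The members and lists were chosen with earlier results of these data known. Named genes are the members, Mesp1, Kdr, Tek and up to 4 genes of each list with the largest differences; others (such as Selp, Tnf, Egfl6, the dim integrins, cell type genes at or near the floor, and gene neighbours) were named after their values were seen. Python 3.11.15, numpy 2.4.6, pandas 2.3.3 and matplotlib 3.10.9 were used.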

Additional observations from a re-analysis of the deposited data

How the results depend on the processing

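No paired analysis was possible because each condition has 1 array and the labels carry no replicate numbers. The count of 3 members past 2-fold and the count of 3 member probe sets were the same under every planned setting that gave a value except 1: without the signal filter, 4 of 16 probe sets passed, the added one being the dimmest of Vcam1. The 9 planned settings were pseudocounts of 1 and 64, scaling to the same median, quantile normalization, the mean of all probe sets, removal of probe sets ending in _x_at or _s_at, and 3 other filters. Plvap, Vwf and Icam1 have a single probe set each, so of these settings only the pseudocounts and scalings could change their differences. Taking differences relative to the median of the endothelium markers, a setting chosen after seeing the data, also left 3 members past 2-fold. The filter at the 75th percentile kept 7 of the 10 members. Differences ranged from 1.43 to 1.67 for Plvap, 1.32 to 1.56 for Vwf, 1.31 to 1.55 for Icam1, 0.11 to 0.36 for Icam2, 0.07 to 0.30 for Egfl8, -0.32 to -0.08 for Egfl7 and -0.72 to 0.10 for Vcam1. Pecam1 ranged from -0.21 to 0.03, so its sign is not settled. The median of the members ranged from 0.34 to 0.87.

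Over all genes, 914 passed 2-fold as reported, 585 with the filter on both arrays and 485 with the filter at the 75th percentile, which test fewer genes. The median of the integrin list (1.26) was 0.63 by the mean of all probe sets and 0.33 without a filter. The median of the EGF-like list (-0.19) was 0.54 without a filter and 1.92 at the 75th percentile, over different numbers of genes. The other list medians ranged from -0.06 to 0.16 for junction genes, -0.23 to -0.05 for selectins and ligands, -0.05 to 0.32 for inflammatory genes, -0.07 to 0.21 for caveolar partners and 0.36 to 0.56 for Weibel-Palade genes. With 1 array per condition, no setting stands in for replicate error, and dim values near the floor have no order.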

Other observations

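The chromosomal neighbours of the members were taken by gene order in RefSeq. Counting the nearest protein-coding gene on each side, 10 neighbours that are no members passed the signal filter, and none differed by 2-fold. Over all genes past the filter 7.75% did, so a count of none among 10 is near that share. The log2 differences of these neighbours ranged from -0.41 to 0.66, with a median of 0.24. Beside Icam1, Mrpl4 had 1968 with dox and 2459 without dox (log2 difference -0.32). Beside Plvap, Gtpbp3 had 1342 with dox and 1270 without dox (0.08). Beside Vwf, Cd9, a tetraspanin, had 1729 with dox and 1272 without dox (0.44). Notch1, the receptor gene next to Egfl7, had 7139 with dox and 6005 without dox (0.25).

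Around the caveolin pair the genes differed in both directions. Tes, a focal adhesion protein next to Cav2, had 3473 with dox and 2446 without dox (log2 difference 0.50), in the direction of Cav2 and Cav1. One gene further out, Tfec, a transcription factor, had 264 with dox and 2132 without dox (-2.94), the opposite direction. On the other side of Cav1, Met, the hepatocyte growth factor receptor, had 108 with dox and 15.8 without dox, below the signal filter on both arrays. These genes were named after their values were seen.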
